A study of Homo sapiens with 6 samples.

Results

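The TTT complex, made of TELO2, TTI1 and TTI2, and the 6 kinases of the phosphatidylinositol 3-kinase-related (PIKK) family, ATM, ATR, PRKDC, MTOR, SMG1 and TRRAP, were followed at the mRNA level in U2OS cells depleted of E4F1. The members were taken as a named set of 9 genes out of 58219 gene identifiers in the count tables, and all 9 passed the filter on low counts. U2OS is an established human osteosarcoma line. Control cells carried a scramble shRNA, and the depleted cells an shRNA that targets E4F1, a zinc finger transcription factor. Each group held 3 libraries, which the series describes as independent pools. All cells were infected for 24 h, selected with puromycin for 48 h and harvested at 72 h, so that viral infection and selection were common to both groups. The labels name a single E4F1 shRNA per sample, and neither its sequence nor a second hairpin was analysed here.

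PIKK proteins are very large and share a C-terminal kinase domain. ATM, ATR and the DNA-PK catalytic subunit encoded by PRKDC respond to DNA damage, MTOR controls growth, SMG1 acts in nonsense-mediated mRNA decay, and TRRAP is a scaffold without kinase activity in histone acetyltransferase complexes. TTT binds newly made PIKK proteins and, with HSP90 and the R2TP co-chaperone, helps them to fold and assemble. That role acts on proteins, and RNA counts do not measure it.

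Reads assigned to genes numbered 14947085 to 16892139 per library. The 4 markers fixed for the line (VIM, RUNX2, SPARC, CD44) summed to 3828 to 4072 CPM, the read count scaled to library size, in control libraries, against 3351 to 3563 CPM with the E4F1 shRNA. Epithelial markers (EPCAM, CDH1, CLDN4) summed to 22.3 to 26.6 CPM in control libraries, against 18.5 to 21.7 CPM with the E4F1 shRNA. Neither sum overlapped between the groups, and EPCAM alone lay higher in E4F1 shRNA libraries, at 6.86 to 7.55 against 4.88 to 5.94 CPM. The part of these differences in the results was not tested. Blood markers summed to 1.43 to 2.56 CPM over all libraries, with CD3E at 0 in each, and endothelial markers to 1.35 to 2.41 CPM. A score of DNA replication and mitosis genes (mean log2 CPM of 35 genes) was 7.23, 7.46 and 7.12 in control replicates 1 to 3, against 7.60, 7.60 and 7.49 in the E4F1 shRNA replicates. Control replicate 2 therefore lay nearest to the E4F1 shRNA libraries in this score.

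E4F1 itself was low in all 3 libraries of its shRNA. Control libraries held 15.6, 17.7 and 19.1 CPM, against 3.18, 3.15 and 2.50 CPM with the E4F1 shRNA. The log2 fold change, E4F1 shRNA over control, was −2.57 (SE 0.14, edgeR adjusted p = 7.66e-10), and the groups did not overlap.

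Among the 9 members only TTI2 passed the test, and it fell. The edgeR quasi-likelihood test, at an adjusted p of 0.05 over all 15765 genes tested, called 1 member lower and 0 higher. Over all genes tested it called 28.9% in either direction, 14.4% lower and 14.4% higher. At an unadjusted p of 0.05 in the same edgeR fit, PRKDC was also called (unadjusted p = 0.0221, edgeR adjusted p = 0.0689). The share of all genes called at that unadjusted threshold was not counted. It is at least 28.9%, since adjustment does not lower a p-value, so nothing is read from the added call. DESeq2 called the same numbers, 1 lower and 0 higher, whereas limma-voom called 1 lower and 1 higher. The median log2 fold change of the 9 members was 0.07, beside −0.01 over all genes tested.

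**Figure D1:**
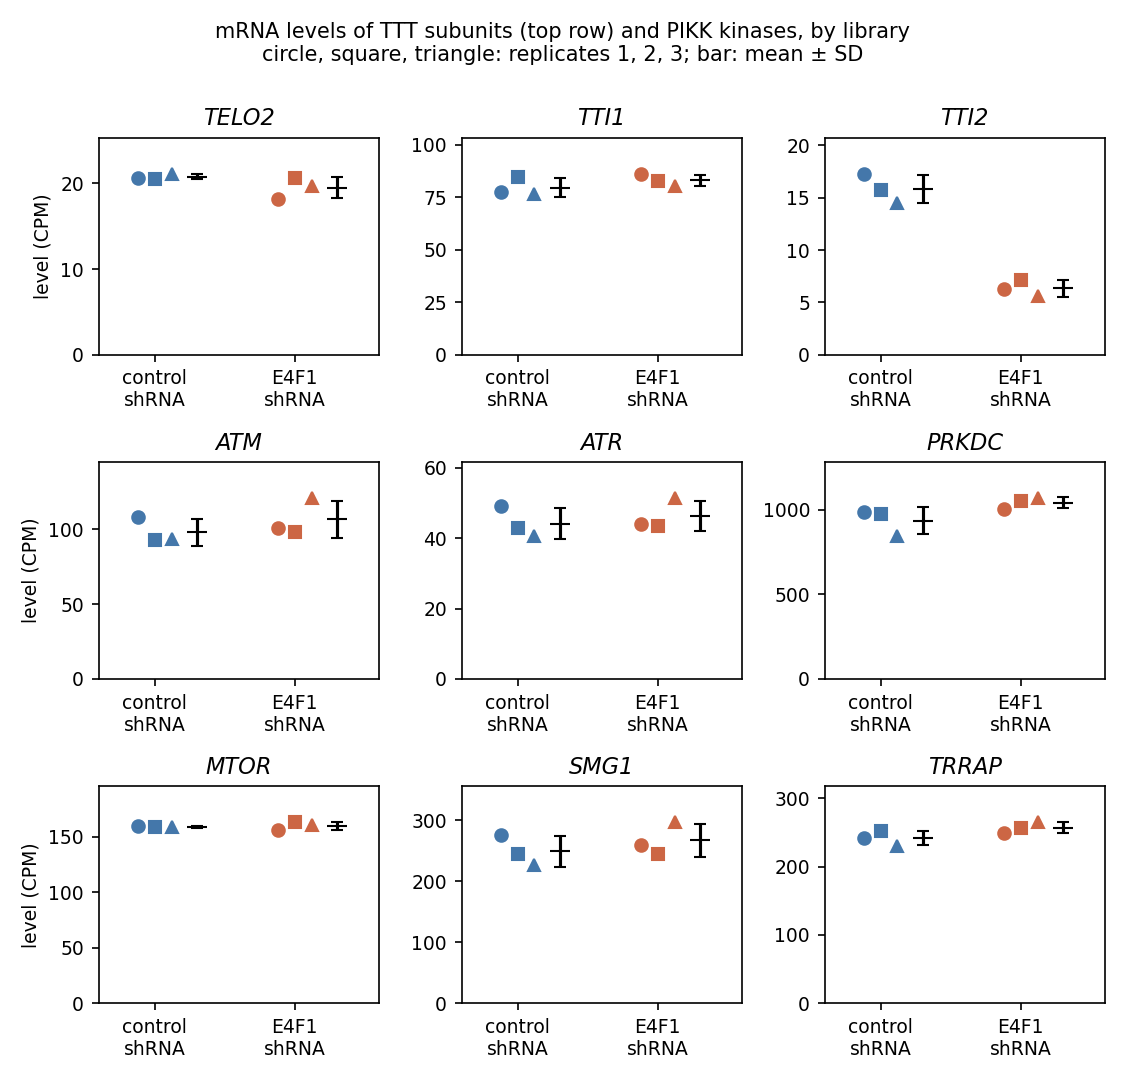
Levels in CPM (y axis, from 0) of the 3 TTT subunit genes and the 6 PIKK genes in control shRNA and E4F1 shRNA libraries, with 1 point per library and the mean ± SD (n = 3) beside the points. TTI2 lies at 14.5 to 17.3 CPM in control and 5.61 to 7.14 CPM in E4F1 shRNA libraries, while the groups overlap in the other panels except PRKDC.

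TELO2, the orthologue of yeast Tel2, is phosphorylated by CK2, and R2TP binds it there. The gene (ENSG00000100726.14, GRCh38 chromosome 16, 1493344 to 1510457, plus strand) lies on the same chromosome arm as E4F1. It stood at 20.6, 20.5 and 21.1 CPM in control and at 18.2, 20.6 and 19.7 CPM in E4F1 shRNA libraries. The groups overlapped at E4F1 shRNA replicate 2. The log2 fold change was −0.09, with a 95% interval of −0.26 to 0.09 (edgeR adjusted p = 0.464).

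TTI1, the long helical subunit that bridges the complex, lies on chromosome 20 (ENSG00000101407.12, 37983007 to 38033468, minus strand). Its level was 77.2, 84.8 and 76.4 CPM in control and 86.0, 82.4 and 80.4 CPM in E4F1 shRNA libraries. Control replicate 2 lay inside the range of the E4F1 shRNA libraries. The log2 fold change was 0.06, with a 95% interval of −0.06 to 0.19 (edgeR adjusted p = 0.479), and it turned to −0.078 once the cell cycle score was a covariate.

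The starts of TTI1 and ATM each lie head to head with a neighbour on the other strand, so their promoter windows are shown. RefSeq (GRCh38.p14) puts the starts of TTI1 and RPRD1B 290 bases apart and those of ATM and NPAT 429 bases apart. Each window runs from 250 bases before to 50 bases after the RefSeq start, 5′ to 3′ on the strand of the named gene. Capitals mark CCAAT or its reverse complement ATTGG, the letters of a common promoter element. The TTI1 window is chr20:38033407-38033706 on the minus strand, and the ATM window is chr11:108222817-108223116 on the plus strand.
TTI1: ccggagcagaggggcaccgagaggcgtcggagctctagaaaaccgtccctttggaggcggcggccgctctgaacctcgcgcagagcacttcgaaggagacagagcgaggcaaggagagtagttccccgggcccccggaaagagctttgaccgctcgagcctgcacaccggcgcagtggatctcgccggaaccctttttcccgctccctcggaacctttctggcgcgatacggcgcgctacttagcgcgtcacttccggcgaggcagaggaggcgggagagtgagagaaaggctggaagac
ATM: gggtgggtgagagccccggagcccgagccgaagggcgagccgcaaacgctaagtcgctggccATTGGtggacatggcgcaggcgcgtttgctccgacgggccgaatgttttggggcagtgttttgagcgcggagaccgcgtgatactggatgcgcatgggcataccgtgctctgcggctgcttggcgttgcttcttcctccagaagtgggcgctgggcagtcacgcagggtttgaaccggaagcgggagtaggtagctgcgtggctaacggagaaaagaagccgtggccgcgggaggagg

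Windows of this kind were found for 6 members, TELO2, TTI1, ATM, ATR, MTOR and SMG1. They make 7 windows because ATM has a pair of starts, whose windows overlap. Chromosome 8, on which TTI2 and PRKDC lie, was left out of the search, and no window was found for TRRAP. The only member that passed the test was therefore not searched. TGACGT or its reverse complement ACGTCA, the core of sites bound by ATF and CREB factors and close to the site described for E4F1, was in 0 of the 7. Of 35116 windows of 300 bases, also without chromosome 8, 7.98% held it. With a share this low, 7 windows are too few for a conclusion from 0. CCAAT or ATTGG was in 3 of the 7 windows and in 34.6% of the 35116 windows. RPRD1B, a regulator of RNA polymerase II, went from 68.0 ± 1.33 to 63.5 ± 1.64 CPM (SD, n = 3 each), with a log2 fold change of −0.10 (edgeR adjusted p = 0.212). Its E4F1 shRNA libraries all lay below its controls, as for 21.1% of genes tested. The log2 ratio of RPRD1B to TTI1 was −0.16, −0.32 and −0.20 in control and −0.40, −0.41 and −0.34 in E4F1 shRNA libraries. These ratios did not overlap (exact two-sided permutation p = 0.1, the smallest that 3 against 3 can give, and 0.2 adjusted over 4 pairs compared). NPAT, a coactivator of histone genes, rose from 45.8 ± 3.15 to 57.0 ± 2.12 CPM (log2 0.32, edgeR adjusted p = 0.00201). It no longer passed once the cell cycle score was a covariate (log2 0.15, edgeR adjusted p = 0.448). The log2 ratio of NPAT to ATM was −1.26, −0.91 and −1.12 in control and −0.76, −0.80 and −1.13 in E4F1 shRNA libraries. These ratios overlapped, so that a difference between the changes of NPAT and ATM was not shown (exact two-sided permutation p = 0.3, 0.3 adjusted over the 4 pairs).

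TTI2, the subunit that binds TTI1, fell in every E4F1 shRNA library. Earlier work has named it as an E4F1 target, so its direction here is not independent evidence on that question. The gene (ENSG00000129696.12, GRCh38 chromosome 8, 33473386 to 33513601, minus strand) drew 258, 254 and 226 reads under control shRNA and 100, 120 and 92 under E4F1 shRNA. In CPM these were 17.3, 15.7 and 14.5 against 6.24, 7.14 and 5.61. The highest E4F1 shRNA library thus lay below the lowest control library, as was the case for 21.1% of all genes tested. The mean went from 15.8 ± 1.37 to 6.33 ± 0.766 CPM (SD, n = 3 each), 2.50-fold lower, or 40.0% of control. The log2 fold change was −1.32, with a 95% interval of −1.57 to −1.07 (SE 0.12, edgeR adjusted p = 5.25e-07). Over 15 alternative settings it ranged from −1.42 to −1.23 and kept its call in each.

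The fall of TTI2 was seen on its own strand, while the counts of the opposite strand overlapped between the groups. The 3′ parts of TTI2 and of MAK16, a ribosome biogenesis gene on the plus strand, share 932 exon bases. The opposite-strand column over TTI2 held 349, 341 and 386 reads in control and 371, 369 and 331 in E4F1 shRNA libraries, more than the TTI2 reads themselves, and the groups overlapped. MAK16 went from 81.1 ± 1.59 to 78.7 ± 9.35 CPM, a log2 fold change of −0.04 with a 95% interval of −0.20 to 0.11 (edgeR adjusted p = 0.697). The log2 ratio of MAK16 to TTI2 was 2.22 to 2.51 in control libraries, against 3.48 to 3.81 with the E4F1 shRNA (exact two-sided permutation p = 0.1, and 0.2 adjusted over 4 pairs). On the same strand, FUT10, a fucosyltransferase gene, shares 37 exon bases with TTI2, and reads that fit both would be in neither gene. FUT10 averaged 7.51 ± 1.12 CPM in control and 8.70 ± 0.0781 CPM in E4F1 shRNA libraries (log2 0.21, edgeR adjusted p = 0.231). Its E4F1 shRNA libraries all lay above its controls, as for 20.7% of genes tested. MAK16 and FUT10 were chosen for their overlap after the values had been seen. When strand was ignored, TTI2 had a log2 fold change of −1.39.

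**Figure D2:**
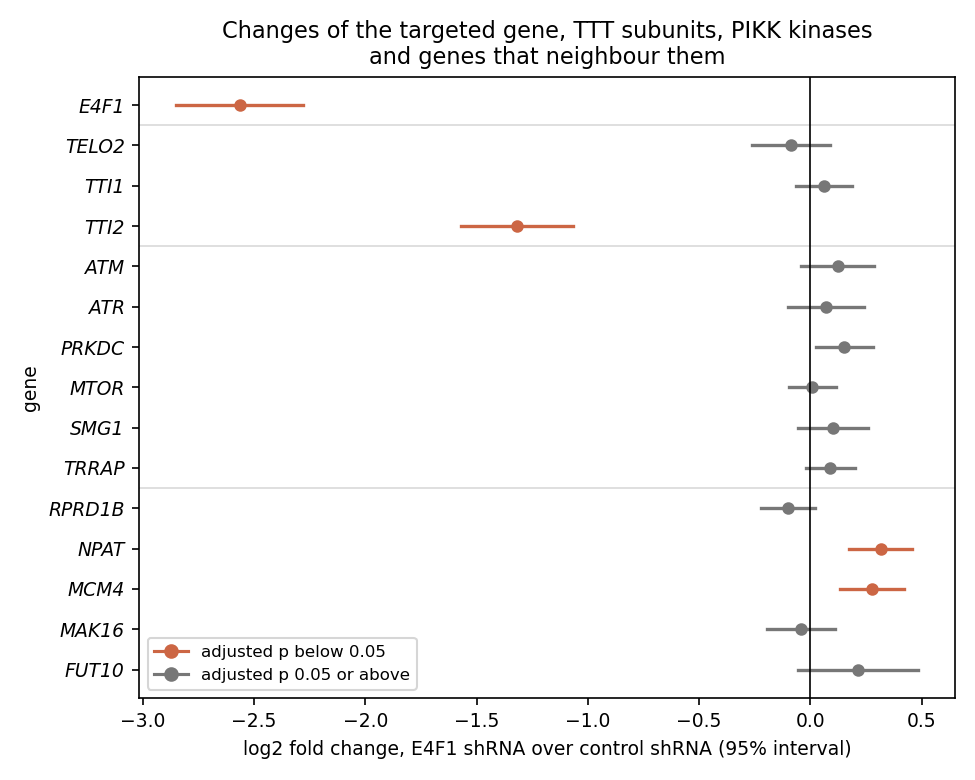
Log2 fold changes of E4F1, the TTT subunits, the PIKK genes and the genes that share a start region or exon bases with a member (x axis, E4F1 shRNA over control shRNA), as points with 95% intervals from the edgeR fit. E4F1 (−2.57) and TTI2 (−1.32) stand to the left, and the intervals of the 6 PIKK genes lie between −0.10 and 0.29.

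The make-up of the TTT transcripts differed between the groups by more than the spread between libraries. Reads per exon length, on which genes can be compared, gave TTI1 as the most abundant subunit in all libraries. TTI2 made up 15.6%, 13.5% and 13.5% of the summed TTT signal per exon length under control shRNA and 5.92%, 6.77% and 5.56% under E4F1 shRNA. The means were 14.2% ± 1.21 and 6.08% ± 0.623 (SD, n = 3 each). The difference of −8.14 percentage points had an exact two-sided permutation p of 0.1, the smallest that 3 against 3 can give. TTI1 took 67.2% ± 1.52 in control and 75.2% ± 1.58 after E4F1 shRNA, while TELO2 took 18.6% ± 0.948 and 18.7% ± 1.29. The shares are parts of the same sum, so the higher TTI1 share mirrors the lower TTI2 share. The level of TTI1 itself did not pass the test (log2 0.06, edgeR adjusted p = 0.479). The TTI2 share rests on the same reads as the fall of TTI2 and is not separate evidence. These shares are taken within a library and do not depend on scaling between libraries. They do depend on the length used: with the longest annotated transcript of each gene, TTI2 took 19.3% and 8.56%.

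**Figure D3:**
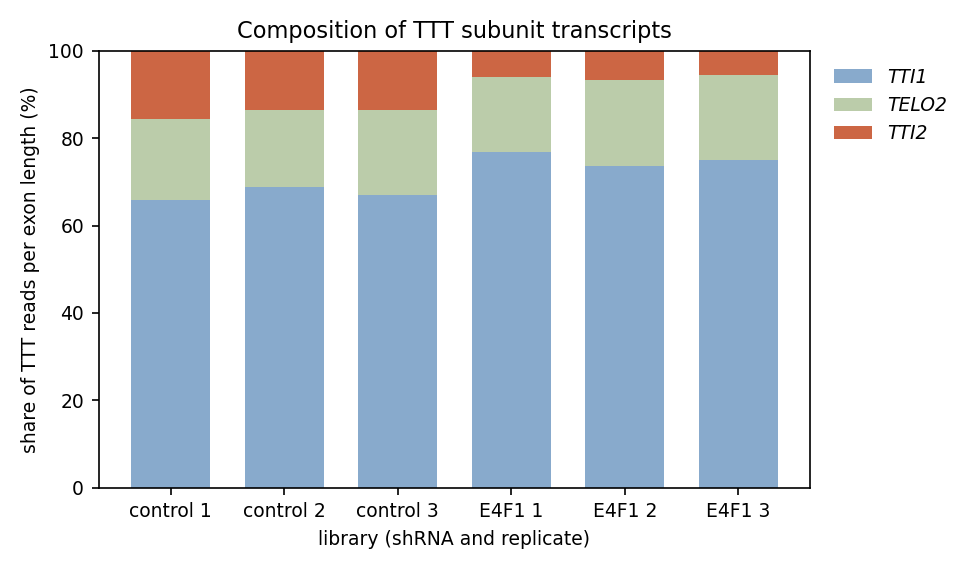
Share of TTI1, TELO2 and TTI2 in the summed reads per exon length of the TTT genes (y axis, percent) in each of the 6 libraries, as stacked bars. TTI2 takes 13.5% to 15.6% in control libraries and 5.56% to 6.77% in E4F1 shRNA libraries.

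On the same per-length scale (CPM per kilobase of exon), PRKDC was the most abundant member in control cells, at 60.7 ± 5.09. TTI1 followed at 17.7 ± 1.03, MTOR at 13.1 ± 0.0556, TRRAP at 12.1 ± 0.539 and SMG1 at 9.57 ± 0.956. TELO2 (4.89 ± 0.0699), ATM (4.09 ± 0.372), TTI2 (3.75 ± 0.325) and ATR (3.53 ± 0.353) formed the low end (SD, n = 3 each). Control libraries of ATM and TTI2 overlapped in level, as did those of TTI2 and ATR, so the order among these is not firm. With the longest transcript as the length, TRRAP (19.1) stood above MTOR (18.3) and ATM (7.45) above TELO2 (6.26). At that length TTI2 (6.29) also came out slightly above TELO2, with overlap between their control libraries. In E4F1 shRNA cells TTI2 was the lowest of the 9 at either length, at 1.50 ± 0.181 per kilobase of exon and 2.52 ± 0.305 per kilobase of longest transcript.

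None of the 6 PIKK genes passed the edgeR test. Each of the 6 log2 fold changes was above 0, with a median of 0.10, beside −0.01 over all genes tested, of which 48.6% were above 0. Leaving out 1 library turned ATR (−0.0038 without E4F1 shRNA replicate 3) and MTOR (−0.0025 without E4F1 shRNA replicate 2) below 0. Their lower bounds ran from −0.10 (ATR) to 0.02 (PRKDC) and their upper bounds from 0.11 (MTOR) to 0.29 (ATM). No interval reached the fall of TTI2. The summed level of the 6 genes was 1823, 1763 and 1595 CPM in control and 1814, 1854 and 1960 CPM in E4F1 shRNA libraries, and the groups overlapped.

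PRKDC came nearest to the threshold. The gene encodes the catalytic subunit of DNA-PK, which acts in end joining of double-strand breaks, and lies on chromosome 8 (ENSG00000253729.7, 47773108 to 47960183, minus strand). Its level was 988, 973 and 845 CPM in control and 1004, 1048 and 1067 CPM in E4F1 shRNA libraries. All E4F1 shRNA libraries lay above all controls, as they did for 20.7% of genes tested (41.8% of genes did not overlap in either direction). The log2 fold change was 0.15, with a 95% interval of 0.02 to 0.28 (SE 0.06, edgeR adjusted p = 0.0689). Its adjusted p fell below 0.05 without control replicate 1 (0.0479) or control replicate 2 (0.0231), while without control replicate 3 the log2 fold change was 0.08 (edgeR adjusted p = 0.344). With the cell cycle score as covariate it was 0.05 (edgeR adjusted p = 0.834).

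PRKDC starts 2 bases from MCM4, a subunit of the replicative helicase on the other strand. MCM4 rose from 291 ± 32.9 to 353 ± 13.3 CPM (SD, n = 3 each), a log2 fold change of 0.28 (edgeR adjusted p = 0.00526). MCM4 is itself 1 of the 35 genes of the cell cycle score, and its value was 0.02 with that score as a covariate. The log2 ratio of MCM4 to PRKDC ran from −1.84 to −1.56 in control and from −1.66 to −1.47 in E4F1 shRNA libraries, and the groups overlapped (exact two-sided permutation p = 0.3, 0.3 adjusted over 4 pairs).

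ATM, the kinase activated by double-strand breaks (chromosome 11, 108222484 to 108369102, plus strand), stood at 108, 92.5 and 93.1 CPM in control and 101, 98.2 and 121 CPM in E4F1 shRNA libraries. ATR, which responds to single-stranded DNA at stalled forks (chromosome 3, 142449235 to 142578826, minus strand), stood at 49.0, 42.8 and 40.6 against 44.0, 43.5 and 51.3 CPM. SMG1, the kinase that phosphorylates UPF1 (chromosome 16, 18804853 to 18926454, minus strand), stood at 275, 244 and 226 against 259, 245 and 296 CPM. In these 3 genes the groups overlapped, and within each group the same library was highest, control replicate 1 and E4F1 shRNA replicate 3.

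Those 2 libraries also had the highest share, in their group, of reads in no annotated exon of the counted strand, which includes intronic reads. That share was 11.5%, 9.98% and 9.53% in control replicates 1 to 3 and 10.5%, 9.23% and 12.2% in the E4F1 shRNA replicates. Its part in the levels of ATM, ATR and SMG1 was not tested. Of the 9 members, 5 had their highest level in E4F1 shRNA replicate 3, namely ATM, ATR, PRKDC, SMG1 and TRRAP. Without that library the log2 fold change went from 0.12 to 0.03 for ATM, from 0.07 to −0.0038 for ATR and from 0.10 to 0.02 for SMG1. Without control replicate 1 it was 0.21 for ATM, 0.16 for ATR and 0.19 for SMG1, and without control replicate 3 it was 0.01 for ATR and 0.04 for SMG1. Once the cell cycle score was a covariate, ATM had 0.26 (edgeR adjusted p = 0.179) and ATR 0.14 (edgeR adjusted p = 0.609). The log2 fold changes over all libraries had 95% intervals of −0.04 to 0.29 for ATM (edgeR adjusted p = 0.261), −0.10 to 0.24 for ATR (edgeR adjusted p = 0.556) and −0.05 to 0.26 for SMG1 (edgeR adjusted p = 0.333).

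SMG1 has near-identical partial copies on chromosome 16, so its count rests on uniquely mapped reads. The pseudogenes SMG1P1 to SMG1P7 drew 2 to 248 reads each over the 6 libraries, against 24707 for SMG1.

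MTOR, the catalytic subunit of the growth-regulating mTOR complexes (chromosome 1, 11106535 to 11262507, minus strand), varied least of the 9 members between libraries. Its level was 160, 158 and 159 CPM in control and 156, 163 and 161 CPM in E4F1 shRNA libraries, a highest-to-lowest ratio of 1.04. The log2 fold change was 0.01, with a 95% interval of −0.10 to 0.11 (edgeR adjusted p = 0.926). TRRAP (chromosome 7, 98877933 to 99050831, plus strand) stood at 242, 252 and 231 against 250, 257 and 264 CPM, with overlap at control replicate 2. Its log2 fold change was 0.09, with a 95% interval of −0.02 to 0.20 (edgeR adjusted p = 0.224), and it was 0.02 once the cell cycle score was a covariate.

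Partners and effectors of TTT and the kinases were read in 7 lists. Of 109 genes in 7 lists, 106 were tested, and 20 rose and 8 fell, with a median log2 fold change of 0.05. Over all genes tested, 14.4% were called in each direction. Without control replicate 2 the calls numbered 39, without any other library 15 to 24. Once the cell cycle score was a covariate 4 were left, 2 higher and 2 lower, so that the excess of rises over falls was not seen in that fit. Calls over all genes tested also dropped there, from 2276 to 338 lower and from 2274 to 487 higher. The score did not overlap between the groups, so its part in a lost call cannot be told apart from that of the shRNA.

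Of 14 genes of the R2TP co-chaperone, its prefoldin-like partners, HSP90 and CK2, only URI1 passed. URI1, a prefoldin-like scaffold, averaged 188 ± 4.69 CPM in control and 210 ± 14.6 CPM after E4F1 shRNA (log2 0.16, edgeR adjusted p = 0.0481), its groups overlapped, and the call was lost without any of 4 libraries, such as E4F1 shRNA replicate 1 (edgeR adjusted p = 0.186), and once the cell cycle score was a covariate (log2 0.05, edgeR adjusted p = 0.827). HSP90AA1, the inducible HSP90, had log2 0.13 (edgeR adjusted p = 0.126), and CSNK2A2, a CK2 catalytic subunit, 0.09 (edgeR adjusted p = 0.198).

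Of 9 tested partners of ATM, ATR and DNA-PK, 3 rose and 0 fell. TOPBP1, the activator of ATR, had log2 0.25 (SE 0.06, edgeR adjusted p = 0.0057). ATMIN, an ATM cofactor, had 0.21 (edgeR adjusted p = 0.00664), and NBN, the MRN subunit that recruits ATM, 0.16 (edgeR adjusted p = 0.0311). The NBN call was lost without control replicate 1 or 3 (edgeR adjusted p = 0.0631 and 0.0645) or E4F1 shRNA replicate 1 or 2 (0.137 and 0.0895). Once the cell cycle score was a covariate none of the 3 passed in edgeR, with TOPBP1 at 0.04 (adjusted p = 0.82), ATMIN at 0.10 (adjusted p = 0.543) and NBN at 0.13 (adjusted p = 0.422).

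Of 21 tested effectors of these kinases, 9 rose and 1 fell, with a median log2 fold change of 0.15. SMC3, a cohesin subunit, rose to 278 ± 14.2 CPM, against 212 ± 24.2 CPM in control (log2 0.39, edgeR adjusted p = 0.0005). BRCA1, a recombination factor, went from 87.2 ± 12.6 to 116 ± 4.44 CPM (log2 0.41), and RAD1, a subunit of the checkpoint clamp, from 70.9 ± 5.52 to 89.5 ± 2.20 CPM (log2 0.34). The gene that fell, named after its value was seen, was CHEK1, the main kinase downstream of ATR, from 50.9 ± 2.75 to 40.2 ± 1.44 CPM (log2 −0.34, edgeR adjusted p = 0.00114). The count of falls stayed at 1 in each alternative but the cell cycle covariate, where it was 2. The 9 rises came to 13 without control replicate 2, to 4 without E4F1 shRNA replicate 2, to 5 without control replicate 3 or E4F1 shRNA replicate 1, and to 0 once the cell cycle score was a covariate. The part of the cell cycle difference between the groups in these rises cannot be told apart from that of the shRNA in that fit and was not tested.

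**Figure D4:**
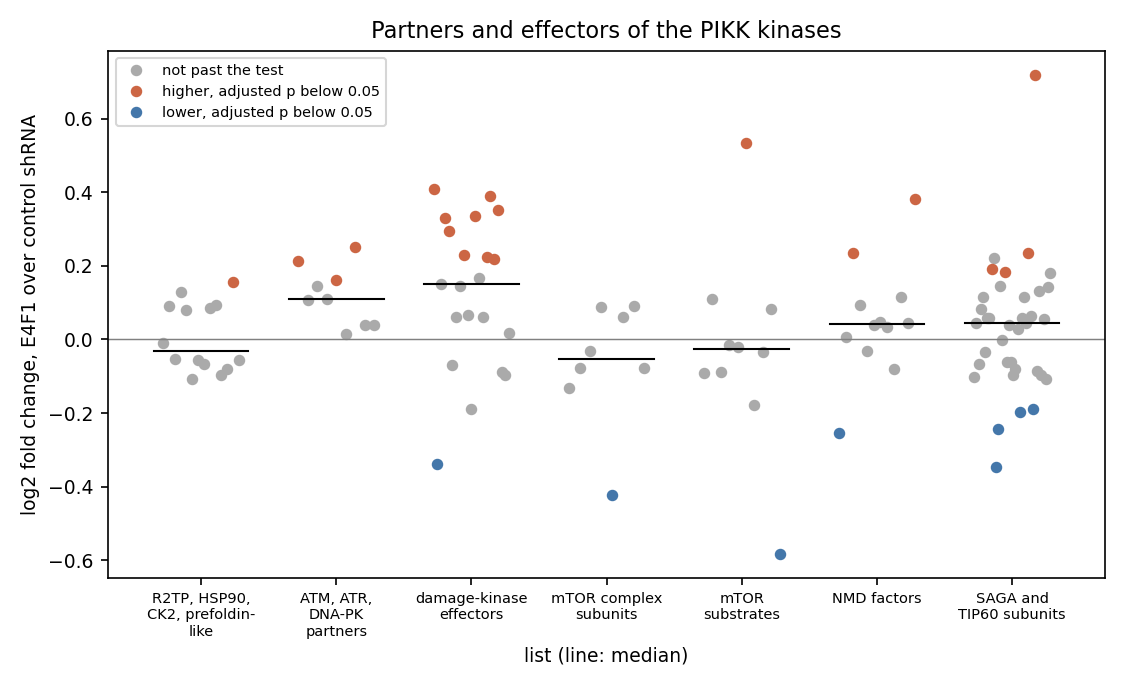
Log2 fold changes (y axis, E4F1 shRNA over control shRNA) of the tested genes in 7 lists of PIKK partners and effectors, with 1 point per gene and a line at each list's median. Points past the test are coloured by direction; the effectors of the DNA damage kinases hold 9 rises and 1 fall.

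Of 8 subunits of the mTOR complexes, 0 rose and 1 fell. PRR5, an mTORC2 subunit, fell from 14.2 ± 0.359 to 10.6 ± 0.989 CPM (log2 −0.42, edgeR adjusted p = 0.00549). AKT1S1, an mTORC1 inhibitor, had log2 −0.13 (edgeR adjusted p = 0.116), and RICTOR, the scaffold of mTORC2, 0.09 (edgeR adjusted p = 0.37). Among 10 mTOR substrates 1 rose and 1 fell. RPS6KB1, the S6 kinase gene, rose from 74.6 ± 2.71 to 108 ± 1.83 CPM (log2 0.53, SE 0.06, edgeR adjusted p = 2.4e-06). ULK1, the autophagy kinase gene, fell from 24.2 ± 1.36 to 16.2 ± 1.89 CPM (log2 −0.58, edgeR adjusted p = 0.000227). RPS6KB2, the S6 kinase paralogue, had log2 −0.18 (edgeR adjusted p = 0.0825). With the cell cycle score as covariate, RPS6KB1 still passed, whereas PRR5 (edgeR adjusted p = 0.263) and ULK1 (edgeR adjusted p = 0.112) did not.

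Of 12 nonsense-mediated decay factors, the machinery that SMG1 drives, 2 rose and 1 fell. UPF3B, an exon junction adaptor, rose to 38.6 ± 3.86 CPM, against 29.6 ± 2.15 CPM in control (log2 0.38, edgeR adjusted p = 0.0024). PNRC2, a decapping adaptor, had log2 0.24 (edgeR adjusted p = 0.00506), and the helicase gene DHX34 had −0.25 (edgeR adjusted p = 0.0095, and 0.0679 without E4F1 shRNA replicate 1). These 3 calls were lost once the cell cycle score was a covariate, with UPF3B at 0.16 (edgeR adjusted p = 0.517), PNRC2 at 0.19 (edgeR adjusted p = 0.258) and DHX34 at −0.16 (edgeR adjusted p = 0.438).

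Of 36 tested subunits of SAGA and TIP60, the acetyltransferase complexes that hold TRRAP, 4 rose and 4 fell. TAF10, shared by SAGA and TFIID, rose from 23.6 ± 3.10 to 39.0 ± 2.56 CPM (log2 0.72, SE 0.09, edgeR adjusted p = 1.66e-05). KAT2A, the SAGA acetyltransferase, fell from 53.5 ± 3.39 to 42.1 ± 1.82 CPM (log2 −0.35, edgeR adjusted p = 0.00108), and TADA3, an adaptor of the same module, had −0.19 (edgeR adjusted p = 0.0176, and above 0.05 without control replicate 3 or E4F1 shRNA replicate 1 or 3, at 0.0806, 0.0934 and 0.0642). The 8 calls came to 13 without control replicate 2, 9 of them higher, and to between 2 and 4 without any other library. Once the cell cycle score was a covariate 1 call was left, TAF10 at 0.41 (edgeR adjusted p = 0.0372), while KAT2A (edgeR adjusted p = 0.124) and TADA3 (edgeR adjusted p = 0.366) did not pass.

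Genes named here for a pattern over the 6 libraries near that of TTI2 had falls of like size. The way they were chosen fixes this, since the pattern includes the difference between the groups. Likeness was the root mean square difference of mean-centred log2(CPM + 0.5) over the 6 libraries, among protein-coding genes with an average log2 CPM of at least 3. The nearest was ZEB1, a zinc finger repressor, at a distance of 0.07 and a log2 fold change of −1.22. PSMB6, a catalytic subunit of the proteasome, lay at 0.12 (log2 −1.10). DPY30, a subunit of histone H3 methyltransferases, and MRFAP1L1 both lay at 0.13 (log2 −1.18 and −1.13).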

How the data were processed

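Polyadenylated RNA from 6 U2OS libraries was sequenced. The authors deposited a table of raw read counts for each library, laid out as STAR's gene counting writes it. The submitters' processing notes name bcl2fastq 2.20, STAR 2.5.1b and GRCh38. The sources used here do not give the annotation release. The reverse-strand column was used, since the forward-strand column held at most 977742 reads in genes. Lines that name no gene held 27.1% to 31.7% of each table and were left out. Names, lengths and 1-based coordinates came from GENCODE 29 on GRCh38 (57881 of 58219 identifiers matched).

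Counts were tested with edgeR 4.0.16 in R 4.3.3 (filterByExpr, TMM, quasi-likelihood F-test, two-sided, Benjamini-Hochberg adjustment over 15765 genes). The fit was also run on simulated counts with the same spread setting for each gene. No result here rests on that run, and it does not measure error rates in these data. CPM values are TMM-scaled. Nothing in the labels says that pools are separate cultures beyond the word independent. The p-values therefore set the group difference against the spread between these libraries only. DESeq2 1.42.0, limma 3.58.1, other scalings, filters, a replicate block, a cell cycle covariate, counts ignoring strand and leaving out each library were alternatives. Members and lists were chosen with earlier results of these data known. Named genes were E4F1, the members, head-to-head neighbours within 1000 bases, SMG1 pseudogenes, up to 3 genes per list by smallest adjusted p, and the 5 nearest to TTI2, of which 1 is not reported here.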

Additional observations from a re-analysis of the deposited data

How the results depend on the processing

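The call of TTI2 and its direction held in all 15 alternatives run, and so did those of E4F1 (log2 −2.63 to −2.45). The count of members called higher, 0 of 9, came to 1, PRKDC, without a low-count filter, with limma-voom and with the replicate block, and ranged from 0 to 1 when single libraries were left out. The difference in the TTI2 share of TTT reads, −8.14 percentage points, was −6.64 with counts ignoring strand and −10.7 with the longest transcript as length. Genes called lower, 2276, came to 338 and genes called higher, 2274, to 487 when the cell cycle score was a covariate, where the pathway lists had 4 calls in place of 28. Leaving out single libraries gave 1419 to 2537 genes called lower, 1605 to 2833 called higher and 15 to 39 list genes. Directions that turned were those of TTI1 (−0.078) and HSP90AA1 (−0.034) with the cell cycle covariate. With single libraries left out, ATR ranged from −0.0038 to 0.16, MTOR from −0.0025 to 0.034 and MAK16 from −0.12 to 0.049. None of these 5 genes passed the test in the fit where its direction turned. HSP90AA1 passed without a low-count filter (0.14, edgeR adjusted p = 0.0469) and without control replicate 2 or E4F1 shRNA replicate 3 (edgeR adjusted p = 0.0449 and 0.0148). The cause was not tested.

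The replicate numbers were not shown to pair the libraries: same-numbered libraries had correlations of their deviations of 0.04, 0.09 and 0.17, and control replicate 2 correlated best with E4F1 shRNA replicate 1 (0.15). With the replicate block TTI2 had log2 −1.32, E4F1 −2.56 and the TTI2 share −8.14 percentage points, and 2446 genes were called lower and 2419 higher. PRKDC passed with the block (edgeR adjusted p = 0.0484). TTI2 had 92 to 258 reads per library, which limits its precision more than that of the other members.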
